A study of Mus musculus with 4 samples.

Results

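Messenger RNA of the Btg4 adaptor and of the CCR4-NOT and PAN deadenylases was measured in whole 2-cell mouse embryos after injection of a small interfering RNA (siRNA). The 10 genes are Btg4, Cnot1, Cnot2, Cnot3, Cnot6, Cnot6l, Cnot7, Cnot8, Pan2 and Pan3, taken by name as the adaptor and deadenylase subunits that clear maternal mRNA. All 10 had a row among the 53715 genes of the count table, and all 10 were among the 25565 genes that passed the filter on low counts. The control group holds 2 libraries from embryos given siNC, a control siRNA, and the knockdown group holds 2 libraries from embryos given siRNA to SPENH0335, which the series' title places among enhancer-derived RNAs. All embryos were of the strain label C57BL/DBA2, were collected as zygotes from the oviduct, were injected at 20 μM siRNA and grew in KSOM, an embryo culture medium. The labels give neither the number of embryos per library nor separate collections, so p-values speak only to the spread among the 4 libraries, which may be technical. The count table has no row named for SPENH0335, so the depth of the knockdown was not analysed here.

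The fully grown oocyte stops transcription and lives on stored mRNA, which is destroyed in steps from meiotic maturation to the 2-cell stage. Decay begins when the poly(A) tail is shortened. CCR4-NOT does most of this work: Cnot1 is the scaffold, Cnot2 and Cnot3 form its NOT module, and each complex carries a nuclease of the CAF1 type (Cnot7 or Cnot8) and one of the CCR4 type (Cnot6 or Cnot6l). Btg4, an oocyte member of the BTG/TOB family, binds the CAF1 nuclease and brings the complex to translated maternal mRNA. PAN2 and PAN3 form a separate deadenylase, in which Pan2 is the nuclease and Pan3 contacts poly(A)-binding protein. The labels give poly(A) RNA as the molecule sequenced, so a message with a shortened tail and a destroyed one cannot be told apart here.

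The nucleases come in pairs of similar genes, and a read from a shared stretch could be counted for the wrong partner. The longest coding sequences of Cnot6 and Cnot6l (GENCODE M21, GRCm38) were identical at 71.9% of aligned positions, and those of Cnot7 and Cnot8 at 69.7%. The longest run shared without a mismatch was 20 bases in each pair. These runs are shown in capitals with 30 coding bases on either side, 5′ to 3′ on the coding strand, because they mark how far each pair can be told apart.
Cnot6 (chr11:49677412-49677491, minus strand, within coding exon 10): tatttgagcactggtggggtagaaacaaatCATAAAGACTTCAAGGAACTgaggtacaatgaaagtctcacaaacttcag
Cnot6l (chr5:96080045-96080124, minus strand, within coding exon 11): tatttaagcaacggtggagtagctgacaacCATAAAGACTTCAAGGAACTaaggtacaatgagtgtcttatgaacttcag
Cnot7 (minus strand, coding exon 3 at chr8:40500752-40500792 joined to coding exon 4 at chr8:40499401-40499439): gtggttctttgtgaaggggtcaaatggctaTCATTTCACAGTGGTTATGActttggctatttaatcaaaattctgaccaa
Cnot8 (plus strand, coding exon 3 at chr11:58113173-58113213 joined to coding exon 4 at chr11:58113950-58113988): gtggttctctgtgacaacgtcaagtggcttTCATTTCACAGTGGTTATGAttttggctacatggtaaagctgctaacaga
Each run ends on both sides at the first mismatch between the partners. The search for shared 50-base words took only the transcript with the longest coding sequence of each gene. In Cnot6l, for example, it held 3170 of 10313 merged exonic bases, and in Pan3 5541 of 14955. Exons found only in other isoforms were not searched. None of the 50-base words in that transcript of Btg4, Cnot2, Cnot6, Cnot6l, Pan2 and Pan3 occurred in a transcript of another annotated gene. The share was 4.13% in Cnot7, shared with Zdhhc2 on the other strand. It was 10.05% in Cnot1, shared with the processed pseudogene Gm6158 and the antisense gene 4930513N10Rik, and 10.2% in Cnot8, shared with the processed pseudogene Gm18860. It was highest in Cnot3, at 32.1%, shared with the processed pseudogene Gm9207 and with Leng1 on the other strand. Gm9207 held between 12 and 35 counts in a library and Leng1 between 711 and 951, against at least 13947 for Cnot3. Gm6158 had at most 81 counts, 4930513N10Rik at most 528 and Gm18860 at most 129, against at least 12313 for Cnot1 and 13305 for Cnot8. The sources used here do not say whether counting used strand.

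Libraries held between 78865491 and 99011109 counts. Markers of oocyte and early embryo summed to between 6536 and 6991 CPM (counts scaled to a common library total, here with trimmed mean of M-values, TMM), and markers of the 2-cell stage to between 850 and 1150 CPM, with none of either list at 0. The summed level of the 12 2-cell markers was higher in both knockdown libraries, at 1150 and 1033 CPM, than in the controls at 850 and 911 CPM, and its part in the results was not tested. Of these 12 markers, 5 lay above and 2 below the controls without overlap (15.6% and 17.1% of all tested genes), and 5 overlapped. At an edgeR unadjusted p under 0.05, 4 were higher and 0 lower in knockdown (1.56% and 2.29% of all tested genes). After adjustment 0 passed. Cumulus and granulosa markers summed to between 81.9 and 96.0 CPM, with Inha at 0 in all libraries. Sperm markers summed to between 11.8 and 20.0 CPM, with Smcp at 0. Blood, oviduct and stroma markers summed to between 84.3 and 117 CPM, with Hbb-bs and Hbb-bt at 0. That sum was 98.2 and 117 CPM in control and 98.0 and 84.3 CPM in knockdown. Knockdown lay above and below without overlap for 1 and 2 of 10 tested cumulus and granulosa markers (15.6% and 17.1% of all tested genes). It was 2 and 4 of 8 for sperm, and 1 and 4 of 10 for blood, oviduct and stroma. At an edgeR unadjusted p under 0.05, 1, 0 and 1 were lower and 0 higher (2.29% and 1.56% of all tested genes). In whole embryos, fewer cells of a type and less RNA per cell cannot be told apart.

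Levels of different genes were compared in CPM per kb of merged exons, since longer genes collect more reads. Btg4 was the highest, with a lowest, median and highest library of 891, 966 and 1031 CPM per kb, above 99.9% of the protein-coding genes with a count. Cnot7 followed with a range of 301 to 337 CPM per kb. Cnot6l ranged from 68.2 to 80.3 and Cnot8 from 57.1 to 69.3 CPM per kb, and these were the only neighbours in the order whose ranges overlapped. Cnot2 was at 46.5 to 55.6, Pan3 at 40.8 to 42.6, Cnot3 at 21.2 to 30.5 and Pan2 at 15.9 to 18.5 CPM per kb. Cnot6 was at 10.8 to 15.4 and the scaffold gene Cnot1 was the lowest, at 8.09 to 9.71 CPM per kb. Adaptor and CAF1 nuclease mRNA thus stood far above that of the scaffold, on the scale per kb. For Cnot8 this rests on the division by length: in CPM it was at 151 to 183, overlapping Cnot1 at 139 to 167. The scale takes reads to be spread evenly along a transcript, which was not tested. Merged exons add up every annotated isoform, which weighs down genes such as Cnot1 and Pan3 with 17169 and 14955 exonic bases. Per kb of the longest coding sequence instead, Btg4, Cnot7 and Cnot6l kept the first 3 places and Cnot1 the last, while 5 genes changed rank, with Pan3 moving up to rank 4.

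**Figure D1:**
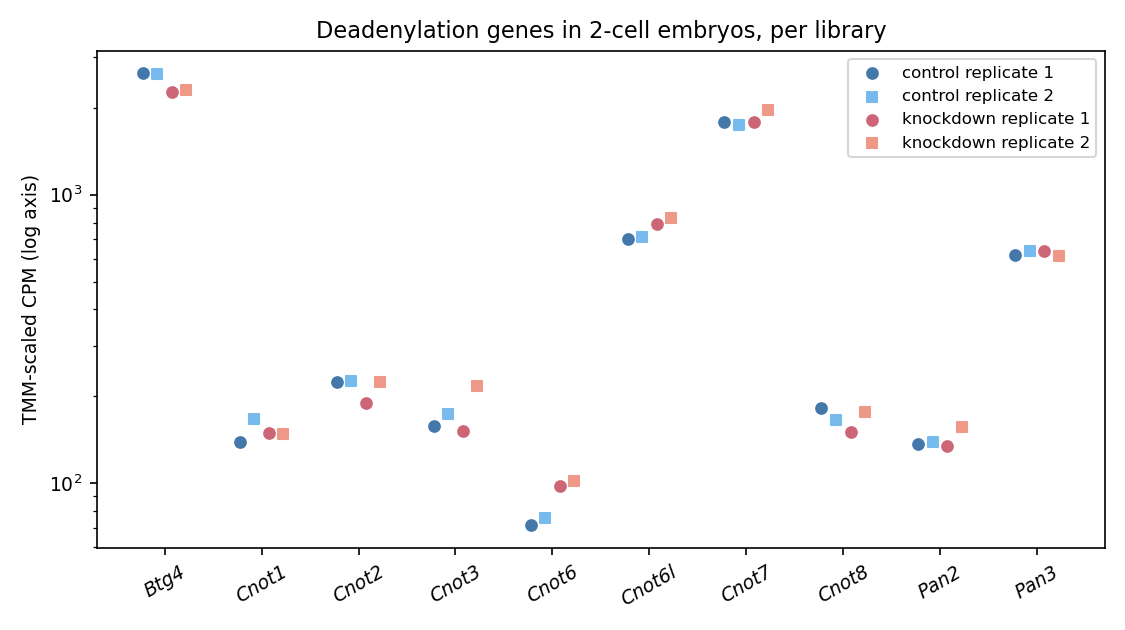
TMM-scaled CPM (log axis, not per length) of each of the 10 genes in each of the 4 libraries, with controls in blue and knockdown in red. Btg4 lies lower in both knockdown libraries, at 2278 and 2315 CPM, and Cnot6 and Cnot6l lie higher in both than in both controls.

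The series' design asks how gene expression in 2-cell embryos differs after SPENH0335 knockdown. None of the 10 genes passed the test for it (edgeR quasi-likelihood test with Benjamini-Hochberg adjustment over all genes, adjusted p 0.9999 for each), and 0% of all tested genes did. At an unadjusted p under 0.05 there were 2 of the 10, beside 3.85% of all tested genes. They were Btg4, lower (as 2.29% of all tested genes were), and Cnot6, higher (as 1.56% were). DESeq2 called 0 of the 10 and 0.153% of all genes, and at an unadjusted p under 0.05 it had 1 of the 10 beside 4.38% of all genes. With limma-voom it was 0 of the 10 and 0% of all genes, and at an unadjusted p under 0.05 it was 3 of the 10 beside 3.13% of all genes. Leaving out 1 library called 0 of the 10 each time, and 0.0107% of all genes without knockdown replicate 1 and 0.00712% without knockdown replicate 2. At an unadjusted p under 0.05 there were then 0 of the 10 without control replicate 1 (1.89% of all genes) and 0 without control replicate 2 (2.00%). There were 5 without knockdown replicate 1 (13.1%) and 4 without knockdown replicate 2 (8.02%). Control and knockdown libraries were fully apart in 5 of the 10 genes. Of all tested genes that held for 32.7%, and of those averaging 10 CPM or more for 32.4%. Knockdown lay above control for 3 of the 10, Cnot6, Cnot6l and Cnot7 (15.6% of all tested genes, 19.1% at 10 CPM or more). It lay below for 2, Btg4 and Cnot2 (17.1% and 13.3%). In Cnot2 and Cnot7 the groups were apart by less than the gap between replicates. The median log2 fold change of the 10 genes was 0.04. That of all tested genes was -0.0025, of those averaging 10 CPM or more 0.03 and of those averaging 100 CPM or more 0.06. For all 10 genes the 95% interval of the fold change lay within 2-fold in either direction, and for 8 within 1.5-fold, as it did for 2102 and 1794 of the 2111 tested genes averaging 100 CPM or more.

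Btg4 (ENSMUSG00000032056, chr9:51060901-51119875, plus strand) was at 2635 and 2622 CPM in the control libraries and at 2278 and 2315 CPM in the knockdown libraries. Both knockdown libraries lay below both controls, and the 2 libraries of a group were close to each other. The group means were 2628 ± 9.50 and 2297 ± 26.3 CPM (SD, n = 2 each). The log2 fold change was -0.19 (SE 0.067, 95% interval -0.36 to -0.03, edgeR unadjusted p 0.0293), a difference of -12.6% that did not pass after adjustment. Its gene body overlaps Layn, 4833427G06Rik, Mir34b and Mir34c on the other strand, none of which had more than 52 counts in a library against at least 210591 for Btg4.

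In the core of CCR4-NOT no gene passed the test. Cnot1 (chr8:95719451-95807464, minus strand), the scaffold, was at 139 and 167 CPM in control and 149 and 148 CPM in knockdown. Both knockdown values fell between the controls, and the log2 fold change was -0.04 (95% interval -0.37 to 0.28). Without control replicate 2 it was 0.09. Cnot2 (chr10:116485161-116581511, minus strand), of the NOT module, was at 224 and 227 CPM in control and 189 and 223 CPM in knockdown. Knockdown replicate 2 was close to the controls and only knockdown replicate 1 stood lower, with a log2 fold change of -0.13 (95% interval -0.43 to 0.18). Without knockdown replicate 1 that change was -0.01. Cnot3 (chr7:3645268-3661109, plus strand), its partner in the module, was at 158 and 174 CPM in control and 151 and 217 CPM in knockdown. The knockdown libraries lay on either side of the controls, the widest replicate gap of the 10 genes at 0.52 on the log2 scale. Its log2 fold change of 0.15 (95% interval -0.32 to 0.63) was 0.39 without knockdown replicate 1 and -0.13 without knockdown replicate 2.

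The CAF1 nucleases were led by Cnot7. Cnot7 (chr8:40492540-40515847, minus strand) was at 1784 and 1750 CPM in control and 1790 and 1962 CPM in knockdown. Knockdown replicate 1 was close to control replicate 1, and knockdown replicate 2 alone stood clearly higher, with a log2 fold change of 0.09 (95% interval -0.11 to 0.29). It was 0.15 without knockdown replicate 1 and 0.02 without knockdown replicate 2. Cnot8 (chr11:58104153-58118594, plus strand) was at 183 and 166 CPM in control and 151 and 176 CPM in knockdown, so the groups overlapped. Its log2 fold change was -0.09 (95% interval -0.42 to 0.23), and 0.02 without knockdown replicate 1. Cnot7 overlaps Vps37a, on the other strand, which was at 134 to 159 CPM and far below Cnot7.

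Among the CCR4 nucleases both genes stood higher in both knockdown libraries than in both controls. The same held for 15.6% of all tested genes, and for 19.1% of those averaging 10 CPM or more. Cnot6 (ENSMUSG00000020362, chr11:49671503-49712723, minus strand) was at 71.5 and 75.7 CPM in control and 97.9 and 102 CPM in knockdown. The gap between the groups was several times the gap within either group, and the means were 73.6 ± 3.01 and 99.7 ± 2.55 CPM (SD, n = 2 each). The log2 fold change of Cnot6 was 0.44 (SE 0.12, 95% interval 0.13 to 0.74, edgeR unadjusted p 0.0130), a difference of 35.5% and the largest of the 10 genes, which did not pass after adjustment. Cnot6l (ENSMUSG00000034724, chr5:96070333-96164171, minus strand), the more abundant partner, was at 703 and 715 CPM in control and 793 and 828 CPM in knockdown. The groups did not overlap, and the log2 fold change of Cnot6l was 0.19 (SE 0.081, 95% interval -0.01 to 0.40, edgeR unadjusted p 0.0585). Over 12 alternative settings, the log2 fold change ran from 0.39 to 0.48 for Cnot6 (adjusted p from 0.203 up to 1) and from 0.15 to 0.23 for Cnot6l (adjusted p from 0.204 up to 1). Within the Cnot6 gene lie the processed pseudogenes Gm12191, at 190 to 344 counts in a library, and Gm12192, at 0 in all libraries. Cnot6 itself had at least 6081 counts, for which counting error alone is 1.28%.

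**Figure D2:**
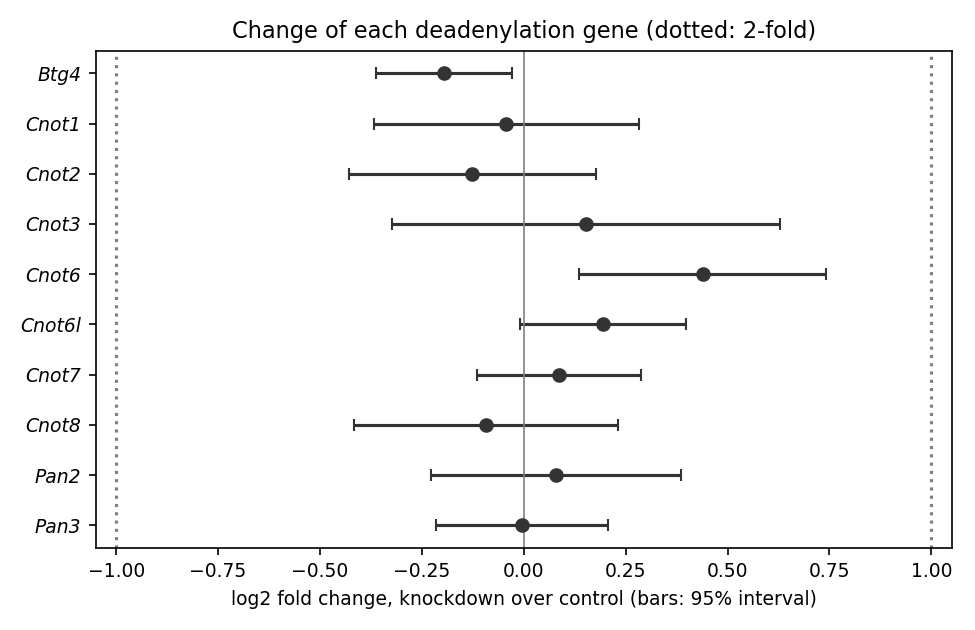
Log2 fold change of knockdown over control for each of the 10 genes (points) with its 95% interval (bars), dotted lines marking 2-fold. The intervals of Btg4, below 0, and Cnot6, above 0, leave out 0 before adjustment, and none reaches 2-fold.

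In the PAN pair neither gene separated the groups. Pan2 (chr10:128303335-128321358, plus strand), the nuclease, was at 137 and 139 CPM in control and 135 and 156 CPM in knockdown. The knockdown libraries lay on either side of the controls, with a log2 fold change of 0.08 (95% interval -0.23 to 0.38). Without knockdown replicate 2 it was -0.03. Pan3 (chr5:147430161-147548502, plus strand), the adaptor, was at 616 and 635 CPM in control and 638 and 611 CPM in knockdown. The knockdown libraries again lay on either side of the controls, and the log2 fold change of -0.0039 (95% interval -0.21 to 0.21) was the smallest in size of the 10 genes; its sign changed with the scaling, to 0.0041 with the size factors of DESeq2.

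Shares of a pair within a library do not depend on how libraries are scaled to each other. Per kb of merged exons, Cnot6 made up 13.7 and 14.2% of Cnot6 plus Cnot6l in control and 16.1 and 16.1% in knockdown. The groups did not overlap, with means of 13.9 ± 0.346% and 16.1 ± 0.0644% (SD, n = 2 each; exact permutation test, two-sided, p = 0.333). Cnot7 made up 81.6 and 82.7% of Cnot7 plus Cnot8 in control and 84.3 and 83.4% in knockdown, also without overlap (exact permutation p = 0.333). For Cnot7 the gap between the groups was smaller than the replicate gap of either group. Pan2 made up 28.2 and 27.8% of Pan2 plus Pan3 in control and 27.2 and 31.1% in knockdown, which overlapped (exact permutation p = 1). The mean share of Pan2 in knockdown minus control was 1.15 percentage points, 3.13 without knockdown replicate 1 and -0.83 without knockdown replicate 2. With 2 libraries against 2 this test cannot go below 0.333, so none of the 3 shares could pass, and adjustment over the 3 would only raise the values. Cnot6l and Cnot7 thus supplied most of the nuclease mRNA of their pairs in all 4 libraries. Summed per kb, the CCR4 pair was at 79.0 and 80.8 in control and 91.8 and 95.7 CPM per kb in knockdown. The CAF1 pair, at 376 and 363 in control and 365 and 404 CPM per kb in knockdown, overlapped.

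**Figure D3:**
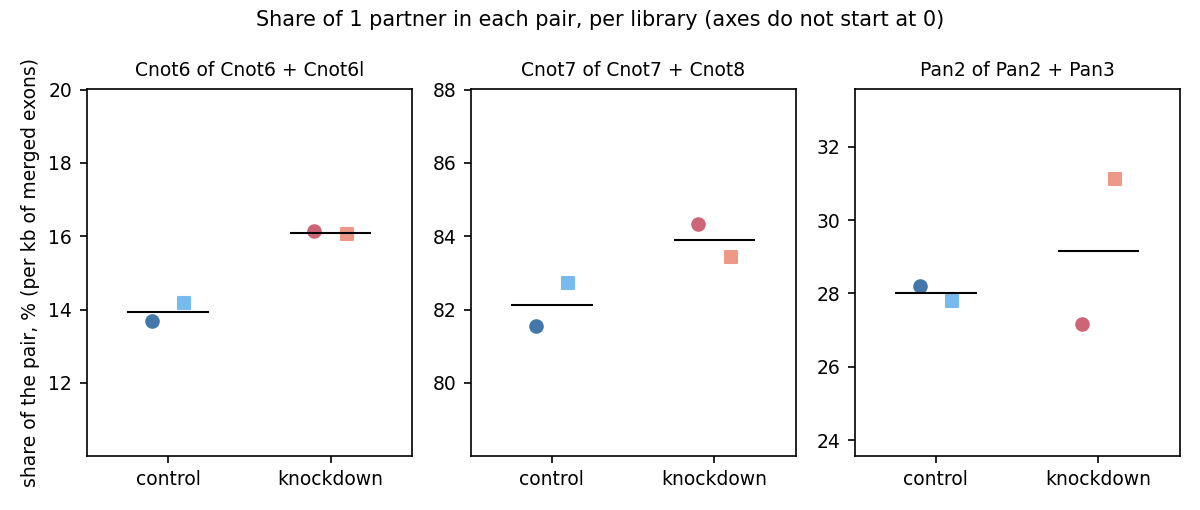
Share of Cnot6, Cnot7 and Pan2 in the summed CPM per kb of its pair, in percent, for each library (points) and group mean (lines), on axes that do not start at 0. Control and knockdown are apart for Cnot6 (13.7 and 14.2 against 16.1 and 16.1%). They are apart for Cnot7 by less than the gap between replicates, and overlap for Pan2.

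Replicates were not equally alike in the 2 groups. The median log2 gap between replicates of the 10 genes was 0.036 in control and 0.097 in knockdown, and it was larger in knockdown for 8 of the 10. The 2111 tested genes averaging 100 CPM or more showed the same order, with medians of 0.074 and 0.19. The gap was larger in knockdown for 1626 of them. Of the 10 genes, 8 were higher in knockdown replicate 2 than in replicate 1, as were 75.7% of those genes. The exceptions were Cnot1 and Pan3. The log2 gap of Btg4 was 0.0074 in control and 0.023 in knockdown, that of Cnot6 0.083 and 0.052, and that of Cnot6l 0.025 and 0.062.

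The rest of the deadenylation and decay machinery showed no change that passed the test either. Of the 10 other CCR4-NOT subunits and BTG/TOB genes, 0 were called (edgeR; 0 at an unadjusted p under 0.05), and their median log2 fold change was 0.05. The smallest p belonged to Tnks1bp1, a CCR4-NOT-associated tankyrase-binding protein, at 8.42 and 7.99 CPM in control and 10.3 and 12.2 CPM in knockdown. Btg3, a relative of Btg4, was at 11.1 and 13.0 CPM in control and 10.2 and 8.48 CPM in knockdown. The 4 remaining Cnot subunits are named here after their values were seen, to complete the complex. Cnot4, a ubiquitin ligase, was at 198 ± 0.219 and 212 ± 36.1 CPM, and Cnot9, which docks RNA-binding proteins, was at 142 ± 5.70 and 163 ± 42.4 CPM. Cnot11 was at 36.8 ± 3.86 and 40.4 ± 7.79 CPM and Cnot10, its partner, at 12.05 ± 1.60 and 11.2 ± 3.95 CPM. The groups overlapped in all 4.

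Of the 6 genes listed as other poly(A) nucleases, 0 were called (0 at an edgeR unadjusted p under 0.05), with a median log2 fold change of 0.16. The list held Parn, Noct, Pde12, Angel1, Angel2 and Toe1, whose activity on poly(A) was not examined here. Angel1 was at 18.1 and 15.5 CPM in control and 12.4 and 14.3 CPM in knockdown. Parn, a poly(A)-specific ribonuclease, was at 43.4 and 35.4 CPM in control and 37.8 and 53.5 CPM in knockdown. Among RNA-binding proteins that recruit deadenylases, 0 of 20 tested were called (0 at an unadjusted p under 0.05; median 0.06). Zfp36l1, which binds AU-rich elements, was at 5.72 and 3.45 CPM in control and 2.09 and 2.42 CPM in knockdown, which gave a log2 difference of -1.02 (95% interval -2.06 to 0.02) and -0.62 without control replicate 1. Gigyf2, a partner of the cap-binding repressor 4EHP, was at 56.5 and 45.2 CPM in control and 55.8 and 68.2 CPM in knockdown.

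Tail-binding and tail-extending factors had list medians close to that of all tested genes. Of 10 tested poly(A)-binding proteins and partners 0 were called (0 at an unadjusted p under 0.05; median 0.04), while Pabpc2 and Pabpc5 were at 0. Paip2, which displaces poly(A)-binding protein from tails, was at 184 and 183 CPM in control and 202 and 223 CPM in knockdown. Paip1 was far more abundant, at 2662 and 2840 CPM in control and 2814 and 3160 CPM in knockdown. Of 11 terminal nucleotidyltransferases, enzymes that add bases to RNA ends, 0 were called (0 at an unadjusted p under 0.05; median 0.01). Tent4b was at 77.6 and 84.2 CPM in control and 100 and 93.0 CPM in knockdown. Tent5b was at 27.8 and 23.2 CPM in control and 25.1 and 43.6 CPM in knockdown.

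Decay that follows deadenylation runs through decapping or through the exosome. Of 18 decapping and 5′ to 3′ decay factors 0 were called (0 at an unadjusted p under 0.05; median 0.10), with 6 higher and 1 lower in knockdown without overlap of the groups (15.6% and 17.1% of all tested genes). Patl1, a decapping activator, was at 50.4 and 53.2 CPM in control and 62.3 and 62.3 CPM in knockdown. Dcp1b, of the decapping complex, was at 0.823 and 1.62 CPM in control and 2.47 and 2.08 CPM in knockdown. Of 15 tested exosome and 3′ to 5′ decay factors 0 were called, while 2 were lower at an unadjusted p under 0.05 (beside 2.29% of all tested genes), and the median was -0.03. Those were Dis3l2, the exonuclease of uridylated RNA, at 7.74 and 5.90 CPM in control and 3.06 and 2.79 CPM in knockdown, and Exosc5. The latter, a ring subunit of the exosome, was at 5.68 and 5.74 CPM in control and 2.62 and 2.78 CPM in knockdown, which gave a log2 difference of -1.08 (95% interval -1.90 to -0.26, edgeR adjusted p 0.9999). Groups did not overlap, with knockdown lower, for 5 of the 15 (17.1% of all tested genes), and for 0 with knockdown higher.

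Maternal oocyte transcripts are the class of mRNA that this machinery is known to remove. Of 35 tested, 0 were called and 2 were lower at an unadjusted p under 0.05 (beside 2.29% of all tested genes). The groups did not overlap for 13, all with knockdown lower, beside 17.1% of all tested genes and 13.3% of those averaging 10 CPM or more. With knockdown higher it was 0, beside 15.6% and 19.1%. The median log2 fold change of the 35 was -0.10, against -0.0025 for all tested genes and 0.03 for those averaging 10 CPM or more. Their summed level did not separate the groups: it was 21764 and 21471 CPM in control and 19163 and 22400 CPM in knockdown, so the knockdown libraries lay on either side. Gdf9, an oocyte growth factor, had the smallest p, at 387 and 369 CPM in control and 273 and 299 CPM in knockdown. Nlrp14, an oocyte NLR family gene, was at 893 and 749 CPM in control and 593 and 665 CPM in knockdown. Btg4, itself a maternal transcript, was left out of this list.

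**Figure D4:**
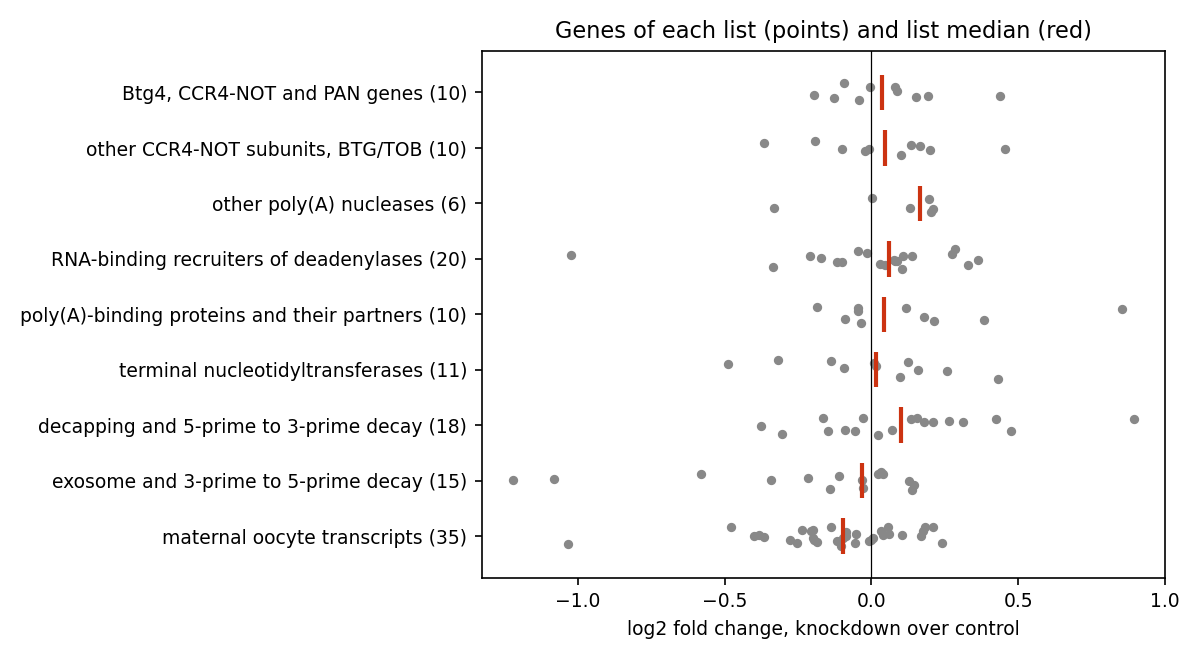
Log2 fold change of knockdown over control for each tested gene (grey points) of the deadenylation genes and of 8 further lists, with the number tested in brackets and the list median in red. Medians run from -0.10 for maternal oocyte transcripts to 0.16 for the genes listed as other poly(A) nucleases, and no gene passed the test after adjustment.

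Genes with a profile like that of Btg4 were sought among 8180 others averaging 10 CPM or more, by Euclidean distance of log2 CPM per kb over the 4 libraries. The nearest was the long noncoding RNA gene AA545190, at 966, 933, 987 and 931 CPM per kb in control replicates 1 and 2 and knockdown replicates 1 and 2 (distance 0.23). The mitochondrial tRNA gene mt-Tq (distance 0.26) and the long noncoding RNA gene C86187 (distance 0.29) followed. The groups overlapped in all 3, unlike in Btg4, so the likeness is one of level. For mt-Tq a very short gene length raises the value per kb.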

How the data were processed

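Whole-number read counts per gene, not normalized by their values, were deposited by the authors in 1 table with 4 library columns. The submitters' processing notes list HISAT2 2.1.0, Trim Galore 0.6.5, Picard 2.18.2, CASAVA 1.8 and build mm10 without a role. The sources used here do not state the counter, annotation, strand setting or duplicate treatment.

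Ensembl IDs without version were matched to GENCODE M21 on GRCm38 (53620 of 53715 rows; all 10 deadenylation genes, 9 with the same version). The test was run in edgeR 4.0.16 (R 4.3.3): filterByExpr with a minimum count of 10, TMM scaling, quasi-likelihood F-test of knockdown against control, two-sided, Benjamini-Hochberg adjustment, threshold 0.05. CPM values are TMM-scaled; SD is over 2 libraries. The SE is the log2 fold change over the square root of F. Alternatives used DESeq2 1.42.0 and limma 3.58.1. No libraries were duplicates: chi-square over degrees of freedom was 30.9 or more for every pair. Intervals rest on the spread between libraries, so they leave out any amplification error shared by the libraries of a group. The cDNA was pre-amplified and no molecular identifiers are named.

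Named genes were the 10, the 2 with the smallest p in each list and the 3 nearest to Btg4. Genes and lists were chosen with earlier results of these data known. Coding sequences were aligned with Biopython 1.88.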

Additional observations from a re-analysis of the deposited data

How the results depend on the processing

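None of the 10 deadenylation genes was called under any of the 12 alternatives. Over all genes, calls went from 0 to 39 with DESeq2, and ran from 0 to 3 when 1 library was left out (3 without knockdown replicate 1, 2 without knockdown replicate 2); the cause was not tested. Log2 fold changes near 0 changed sign with the scaling or with the filter on low counts. Pan3, at -0.0039, turned to 0.0041 with DESeq2 size factors and with DESeq2. AA545190, at 0.015, turned to -0.023 with library totals alone and -0.0068 with only genes averaging 10 CPM or more. C86187, at -0.0041, turned to 0.0043 with DESeq2 size factors and with DESeq2. Leaving out 1 library gave ranges that crossed 0 for Cnot1 (-0.17 to 0.094), Cnot3 (-0.13 to 0.39), Cnot8 (-0.20 to 0.018), Pan2 (-0.027 to 0.18), Pan3 (-0.034 to 0.033), Parn (-0.056 to 0.44), Tent5b (-0.013 to 0.78), AA545190 (-0.027 to 0.061), mt-Tq (-0.12 to 0.098) and C86187 (-0.029 to 0.027). The knockdown-minus-control share of Cnot6 was 1.55 percentage points from raw counts or per coding kb, against 2.17 per kb of merged exons; that of Cnot7 was 0.966 and 0.947 against 1.75. In the order by level, 5 genes changed rank per coding kb and 2 in control replicate 1 alone. The deviations of same-numbered libraries from their group means had a correlation of -0.21 over 8185 genes, a weak tendency, and the libraries share only a number. The replicate block called 0 genes and 0 of the 10 (479 genes at an unadjusted p under 0.05). The crossed pairing, chosen after seeing the data, also called 0 and 0 (747 genes at an unadjusted p under 0.05).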
